A study of Mus musculus with 5 samples.

Results

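Two-cell-like barcodes were chosen by their own transcripts in 5 droplet single-cell RNA libraries of mouse embryonic stem cells: a barcode had to hold at least 2 unique molecular identifiers (UMIs, each standing for 1 captured RNA molecule) summed over 12 genes. These rule genes were Zscan4c, Zscan4d, Zscan4f, Tcstv1, Tcstv3, Gm21761, Gm21818, Platr31, B020031M17Rik, Gm2016, Gm8300 and Gm5039. The rule picked 1267 of 49074 barcodes left after those under 500 genes or over 20% mitochondrial UMIs were removed. They were compared with the 45087 barcodes of the same libraries that had 0 such UMIs, called zero barcodes here, and the 2720 barcodes with exactly 1 such UMI stood outside both groups. The members were selected on measured UMIs of the rule genes, so the levels of these genes are given as a description without a test.

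Cultures of mouse embryonic stem cells hold at any time a small fraction of cells that transcribe genes otherwise switched on in the embryo at the two-cell stage, when the zygotic genome is activated. The factor Dux is known to start this program, with Dppa2 and Dppa4 acting before it, and many of its targets lie in repeated gene clusters or are driven by MERVL retroviral repeats. Zscan4 proteins carry a SCAN domain and zinc fingers and are known for telomere maintenance, and Zscan4 and Tcstv transcripts are standard markers of the state, which cells enter and leave.

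All libraries came from REX-1 RFP cells, which carry a red fluorescent protein under the Rex1 promoter (the gene is named Zfp42 in the files), first grown with leukaemia inhibitory factor (LIF) in every group and then kept in their condition for 72 h. NS cells still had LIF, which keeps mouse embryonic stem cells undifferentiated. The ND library went without LIF, and the other 3 libraries received sorbitol at 200, 250 and 300 mM in the presence of LIF, which makes the medium hyperosmotic. With 1 library per condition, values between libraries carry counting error only, and a batch cannot be told apart from a condition.

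The median kept barcode held 2135 UMIs in NS and 801 to 939 in the other libraries, and within a library the deepest barcode held 2.93 to 3.31 times the UMIs of the shallowest. All 4 markers of embryonic stem cells (Pou5f1, Sox2, Nanog and Zfp42) were present in both members and zero barcodes, at a summed level of 1079 to 1775 UMIs per 1000000 UMIs (CPM) in members and 1304 to 1873 CPM in zero barcodes. Members held 2122 UMIs of these markers where 2447 were expected from zero barcodes of the same libraries, and 1 of the 4 was called lower. Of 49558 distinct barcode sequences, 441 occurred in more than 1 library, and 1 of these was a member in more than 1. Members and zero barcodes had close median depths. The median of UMIs outside the rule genes was 2146 against 2133 in NS, and the difference lay between -1 and 15 UMIs over the 5 libraries (exact two-sided sign-flip permutation test over libraries, p = 0.125, adjusted over 4 measures 0.5). The smallest p that 5 libraries allow is 0.063, so the test cannot show equal depth. The upper quartile was 2346 in members against 2327 in NS, 927.5 against 892 in ND, 982 against 953 at 200 mM, 1031 in both groups at 250 mM and 897.5 against 871 at 300 mM. The number of genes per barcode and the mitochondrial and ribosomal protein shares had p of 0.3125 to 0.875 in the same exact permutation test.

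Members were most frequent at 200 mM sorbitol and rarest without LIF. They made up 349 of 10000 barcodes in NS (3.49%, exact binomial 95% interval 3.14 to 3.87), 35 of 9240 in ND (0.379%, 0.264 to 0.526), 477 of 9985 at 200 mM (4.78%, 4.37 to 5.21), 236 of 10000 at 250 mM (2.36%, 2.07 to 2.68) and 170 of 9849 at 300 mM (1.73%, 1.48 to 2.0). NS was the deepest library, so every barcode was also thinned to 500 UMIs before the rule was applied. The thinned shares were 1.07% in NS (0.878 to 1.29), 0.281% in ND (0.184 to 0.412), 2.71% at 200 mM (2.40 to 3.05), 1.20% at 250 mM (0.996 to 1.43) and 1.04% at 300 mM (0.845 to 1.26). ND stayed lowest and 200 mM highest, with intervals that overlapped no other library's, while the intervals of NS, 250 mM and 300 mM overlapped once thinned. The libraries hold no cell type that should lack these transcripts, so no share of barcodes with a stray UMI could be set beside these.

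**Figure D1:**
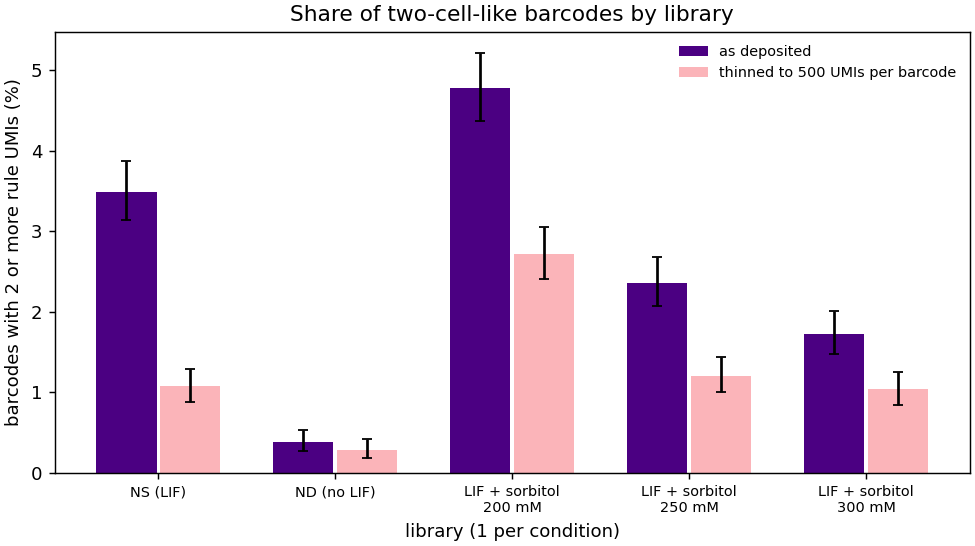
Percent of kept barcodes (vertical axis) with at least 2 rule-gene UMIs in each of the 5 libraries (horizontal axis), as deposited and after thinning each barcode to 500 UMIs. Error bars are exact binomial 95% intervals and cover counting error only; NS fell from 3.49% to 1.07% on thinning, and ND and 200 mM sorbitol remained lowest and highest.

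Rule-gene UMIs were not spread evenly over barcodes. The variance over the mean of the summed count (the Fano factor, about 1 for molecules scattered at random) came to 7.87 for NS, 3.81 for ND, and 3.11, 3.65 and 2.53 at 200, 250 and 300 mM. In NS, 52 barcodes held 10 or more rule UMIs and the richest held 33. The counts of such barcodes were 3 in ND, 11 at 200 mM, 8 at 250 mM and 0 at 300 mM, where the richest barcode held 9. The median member held 4 rule UMIs in NS and 3 in each other library. Members carried 73.5% of all rule UMIs in NS and 56.3% to 63.7% in the other libraries. The Fano factors, the counts of rich barcodes, the medians and these percentages can all move with depth. The median kept barcode held 2135 UMIs in NS and 801 to 939 elsewhere, so no order of conditions is read from them. Per 10000 UMIs of the members, the rule genes took 25.7 for NS, 49.4 for ND and 36.6, 38.3 and 35.6 with rising sorbitol; since the rule asks for 2 UMIs at any depth, these shares can move with the depth of each library and no order is read from them. Just inside the threshold, with exactly 2 rule UMIs, lay 108 barcodes of NS, 10 of ND and 203, 99 and 84 with rising sorbitol; just outside it, with exactly 1, lay 731, 103, 948, 525 and 413.

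**Figure D2:**
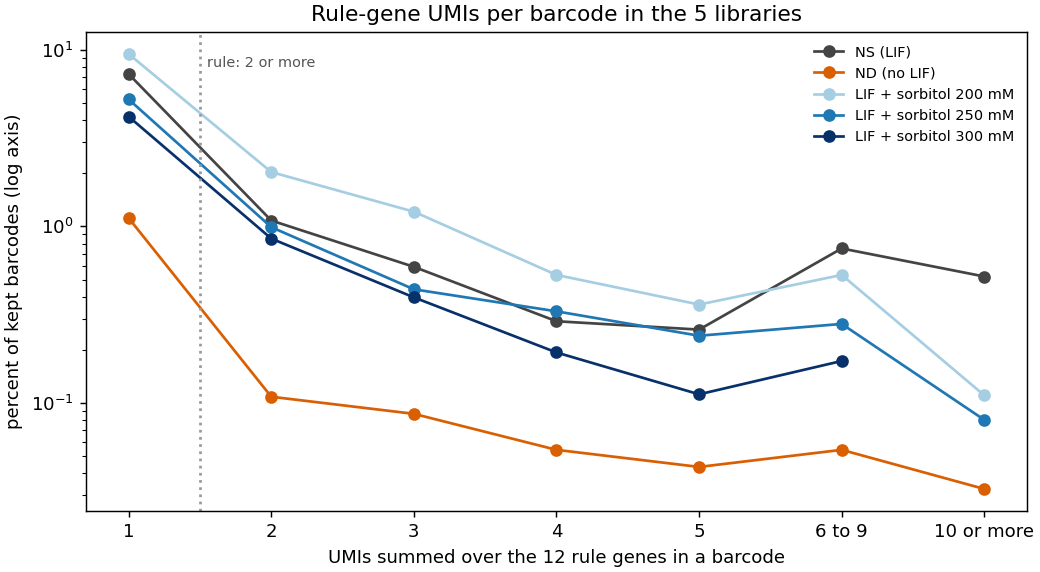
Percent of kept barcodes (vertical log axis) by the number of rule-gene UMIs in the barcode (horizontal axis), 1 line per library, with a dotted line at the threshold of the rule. NS, the deepest library, has the longest tail, with 52 barcodes at 10 or more. ND lies lowest in the classes from 1 to 9, and 300 mM has no barcode at 10 or more. The counts were not thinned to a common depth.

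The label Zscan4 or Tcstv fits a minority of the barcodes when read gene by gene. A Zscan4 UMI was present in 133 members and a Tcstv UMI in 214, and 326 of the 1267 (25.7%) held either. The remaining members qualified through Gm21761 and Gm21818, B020031M17Rik, the Gm2016, Gm8300 and Gm5039 group and the long non-coding RNA Platr31. At least 2 different rule genes were detected in 1118 members (88.2%), and up to 10 in 1 barcode. The barcodes are therefore called two-cell-like here by their rule, and the 326 alone are compared with zero barcodes as an alternative.

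The rule genes lie in a few clusters (GENCODE M21, GRCm38, which is the mm10 build). Zscan4c, Zscan4d and Zscan4f are protein-coding genes on chromosome 7 from 11005745 to 11402318. Tcstv1, Gm21761, B020031M17Rik, Gm21818 and Tcstv3 are protein-coding genes on chromosome 13 from 119893388 to 120318178. Gm8300, Gm2016 and Gm5039 are protein-coding genes on chromosome 12 from 87514316 to 88324026. Platr31 lies on chromosome 6 from 127100297 to 127110467 and is annotated as antisense. It overlaps Tigar (127085116 to 127109557), and since the use of strand in counting is not given in the sources used here, their reads cannot be told apart. Tigar itself had a log2 fold change of 0.14 between member and zero barcodes (edgeR, adjusted p = 0.847).

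Some copies within a cluster are alike at the 3′ end that such libraries read. Over the last 300 bases of the longest GENCODE transcript, Zscan4c and Zscan4d matched at 96.7% of positions, Gm8300 and Gm5039 at 94.3%, Gm21818 and B020031M17Rik at 87.0% and Tcstv1 and Tcstv3 at 86.3%. Genes of different clusters matched at 53.7% to 61.7%. Some pairs of the same cluster were as far apart: Zscan4f matched Zscan4c at 61.7% and Zscan4d at 59.3%. The lowest pair of the chromosome 13 cluster was at 59.3%. Gm2016 matched Gm8300 and Gm5039 at 66.0%, somewhat closer. The remaining pairs of the chromosome 13 cluster matched at 62.7% to 84.0%, with Tcstv1 and Gm21761 at 84.0% and Gm21761 and Gm21818 at 80.0%. The split of UMIs between the close pairs is uncertain.

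Sequence in front of the RefSeq start site was held for 4 of the 12 rule genes (RefSeq, GRCm38.p6). Of the 250 bases there, those outside any GENCODE exon are printed for 3 genes, to show how close the Zscan4 copies are and what a gene of another cluster shares with them. The stretches are chr7:11005495-11005744 on the plus strand for Zscan4c, chr7:11166160-11166398 on the minus strand for Zscan4d and chr13:119913549-119913718 on the minus strand for Gm21761, the last within an intron of the longer GENCODE model of that gene. Capitals mark matches to TATAAA, the core of a TATA box, and to TGATTCAAT, a string chosen after these sequences were read; both strands were searched and the strings do not overlap.
Zscan4c: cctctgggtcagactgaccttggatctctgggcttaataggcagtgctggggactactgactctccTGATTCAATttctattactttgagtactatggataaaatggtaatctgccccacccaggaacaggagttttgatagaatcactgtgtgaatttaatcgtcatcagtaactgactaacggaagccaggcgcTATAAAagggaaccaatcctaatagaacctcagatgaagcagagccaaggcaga
Zscan4d: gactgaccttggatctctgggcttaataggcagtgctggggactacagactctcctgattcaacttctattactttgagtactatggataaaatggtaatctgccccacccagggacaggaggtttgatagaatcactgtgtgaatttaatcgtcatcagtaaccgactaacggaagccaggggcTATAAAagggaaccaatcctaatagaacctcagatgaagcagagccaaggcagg
Gm21761: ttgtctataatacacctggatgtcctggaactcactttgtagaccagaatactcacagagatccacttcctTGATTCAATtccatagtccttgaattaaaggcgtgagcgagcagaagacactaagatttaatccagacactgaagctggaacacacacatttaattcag
Over the 238 bases in which they align, the stretches of Zscan4c and Zscan4d were identical at 232 (97.5%), and those of Zscan4c and Zscan4f at 226 of 227. TATAAA was found before all 3 Zscan4 genes and not before Gm21761, and before 14.3% of 27025 genes searched over the same 250 bases. TGATTCAAT was found before Zscan4c, Zscan4f and Gm21761 and before 0.133% of these genes. A gene with several start sites counted if any of them had a match. A match is a string of letters and not a shown binding site.

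The abundant rule genes were not the Zscan4 genes. Over all kept barcodes of NS, Gm21761 stood at 19.7 CPM; it was at 8.85 CPM in ND and at 68.3, 33.99 and 22.7 CPM at 200, 250 and 300 mM. Platr31 had 39.9 CPM for NS, 6.96 CPM for ND and 51.5, 24.3 and 20.3 CPM with rising sorbitol. Zscan4d, the Zscan4 copy with most UMIs, reached only 1.94 CPM for NS, 0.885 CPM for ND and 4.88, 3.69 and 1.81 CPM with rising sorbitol. For all 3 genes the order of libraries had ND lowest and 200 mM highest, as for the shares. Zscan4f had 7 UMIs in NS and 1 at 200 mM and was not detected in the other libraries, and Tcstv1 had 0 to 5 UMIs per library.

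Platr31 took a different share of the rule UMIs from library to library, which is given as a description since it helped to choose the members. It was present in 254 of the 349 NS members (72.8%), at a median depth of 2154 UMIs, and, at 811.5 to 940.5 UMIs, in 54.3% of ND members and 43.2%, 38.1% and 40.0% of members at 200, 250 and 300 mM. It made up 31.9% of the members' rule UMIs in NS (95% interval 29.9 to 33.98) and 15.7% to 19.3% elsewhere. Gm21761 showed the other pattern, with 16.4% of rule UMIs in NS members and 19.7% to 27.3% in the other libraries. These shares add to a whole, so a higher share of 1 gene lowers those of the others.

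Each rule gene was also read without itself. Among barcodes with at least 2 UMIs of the other 11 genes, Gm21761 had a UMI in 41.2% (428 of 1038, 38.2 to 44.3), against 1.27% of barcodes with 0 of the other 11. Platr31 was at 38.7% against 1.49%, Tcstv3 at 13.4% against 0.281% and Zscan4d at 5.23% against 0.113%. The lowest share, that of Tcstv1, was 0.316% against 0.020% and rests on 4 of 1267 barcodes. At 200 mM Tcstv1 was found in 0 of 477 against 5 of 8565. In pooled values every rule gene was found more often where the others were present. The rule was set with earlier results of these data known, so these shares are a description, and close copies can share reads. Platr31, which belongs to none of the 3 clusters, was at 63.9% against 2.86% in NS and 26.1% against 0.888% at 300 mM.

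Outside the rule, 13104 genes were tested with edgeR's quasi-likelihood test on UMIs summed per library over members and over zero barcodes, with the library as a block. The test asks for a difference shared by the libraries and not for one between conditions. At a Benjamini-Hochberg adjusted p of 0.05, 257 genes (1.96%) were higher in members and 41 (0.313%) lower. Of the 257, 119 were higher in all 5 libraries, 215 in at least 4, and 162 exceeded 4-fold. The median log2 fold change of all tested genes was -0.08, that of the genes called higher 3.14 and that of the genes called lower -0.54. DESeq2 called 214 higher, all of them among the 257, and 0 lower (557 genes at an unadjusted p of 0.05 in either direction), so that 100% of its calls were higher against 86.2% here. Without the library block on the same 13104 genes, an alternative added after seeing the data, the counts were 177 and 0 (641 at an unadjusted p of 0.05), and all 177 were among the 257. When the filter was also set without the block, only 11705 genes and 174 of the 257 were tested, and the counts were 103 and 0 (426 at an unadjusted p of 0.05). Without the NS library, which gave 789084 of the 1654949 UMIs of members, 167 genes were higher, 166 of them among the 257. Among members with a Zscan4 or Tcstv UMI only, 141 were higher and 138 of these were among the 257, of which 221 could be tested. There Gm8994 had a log2 fold change of 5.86, Usp17lc 5.89, Nelfa 2.50 and Fbxo15 1.63, all called, whereas Dppa2 (0.66, edgeR adjusted p = 0.104) and Dppa3 (0.79, 0.0681) were not.

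**Figure D3:**
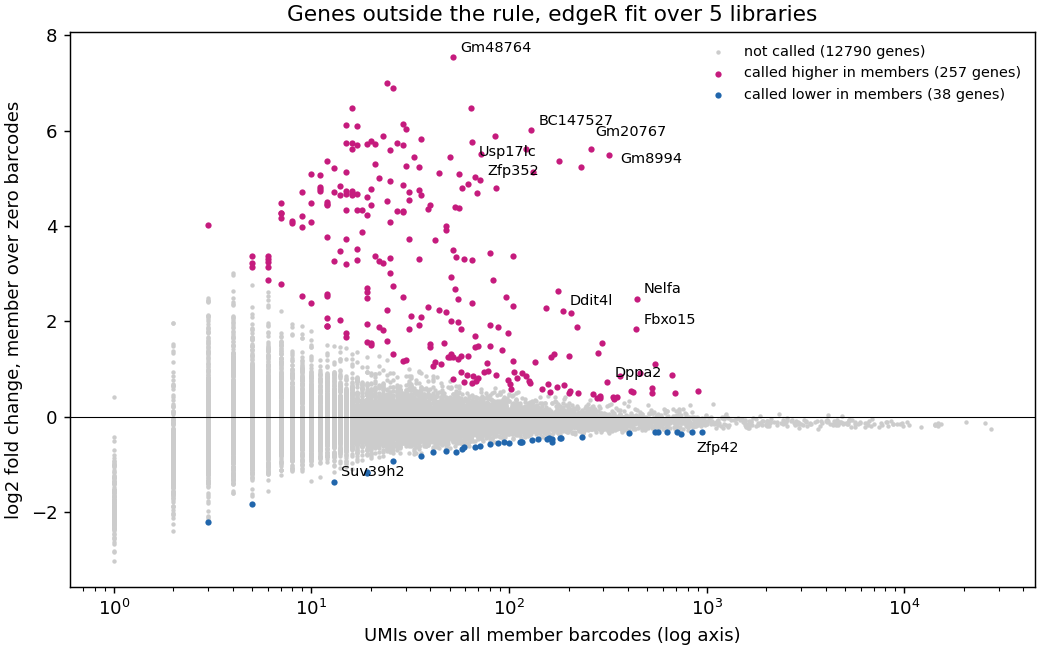
Log2 fold change of member over zero barcodes (vertical axis) against the number of UMIs over all members (horizontal log axis) for tested genes outside the rule with at least 1 such UMI. Coloured points are the 257 genes called higher and those called lower, except 3 with 0 UMIs in members that a log axis cannot show; the genes called higher reach a log2 fold change of 7.54 (Gm48764), whereas most of those called lower lie between 0 and -1.

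The other genes of the two-cell program were described by a list of 54, of which 52 were among the features, 47 had a UMI and 35 passed the filter on low counts. In edgeR, 30 of the 35 were higher in members and 0 lower, beside 1.96% higher and 0.313% lower over all tested genes, with a median log2 fold change of 4.89 against -0.08. A gene that passes this filter only through members has to differ, and the list was made with earlier results of these data known, so its count is a description. The same holds for the folds and p given below for its genes that were nearly absent from zero barcodes. The list's summed level was 1271 CPM in members and 168 in zero barcodes of NS, 2383 and 123 in ND, 1664 and 386 at 200 mM, 2081 and 443 at 250 mM and 1412 and 377 at 300 mM. It was higher in members in 5 of 5 libraries, 5.37-fold in all, and the zero barcodes of the sorbitol libraries held more of it than those of NS and ND. A large part of that base was 1 gene, Mylpf, at 97.6 CPM in zero barcodes of NS, 58.8 in those of ND and 269, 333 and 265 with rising sorbitol, and Mylpf was not called between members and zero barcodes. Without Mylpf, left out after its values were seen, the summed fold was 14.5 (13.9 to 15.1), with zero barcodes at 70.2 CPM in NS, 63.8 in ND and 117, 110 and 112 with rising sorbitol.

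The deubiquitinase genes of the Usp17l family, near-identical copies on chromosome 7 between 103249737 and 104862667 and away from the Zscan4 cluster, were all higher: Usp17lc had 178 UMIs in members. Its level in members and zero barcodes was 80.0 and 1.42 CPM in NS, 99.3 and 0.771 in ND, 141 and 5.71 at 200 mM, 160 and 1.89 at 250 mM and 74.0 and 2.57 at 300 mM. Member and zero values did not overlap over the libraries, though the ND member value rests on few UMIs, since the 35 ND members held 30364 UMIs in all. The fold was 39.2 (95% interval of the member count 33.6 to 45.4, log2 5.37, SE 0.23, edgeR adjusted p = 9.36e-118). Usp17la, Usp17lb, Usp17ld and Usp17le had 11 to 62 UMIs and log2 fold changes of 4.50 to 5.07. They had only 0.319 to 2.10 UMIs expected in members from zero barcodes, so their values are a description. A UMI of any of the 5 was found in 202 members (15.9%), in 2.28% of barcodes with exactly 1 rule UMI and in 0.475% of zero barcodes. By library the members' share was 22.1% in NS, at a median depth of 2154 UMIs, and 9.41% to 20% in the others, at 811.5 to 940.5.

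Gm8994, a gene model on chromosome 6 (136327539 to 136329983), gave the most UMIs of the list, 321. It stood at 159 CPM in NS members against 3.24 in NS zero barcodes, 430 against 1.16 in ND, 234 against 7.62 at 200 mM, 278 against 5.77 at 250 mM and 87.4 against 1.80 at 300 mM. Every member value exceeded every zero value, with a fold of 42.0 (37.6 to 46.9; log2 5.48, SE 0.17, edgeR adjusted p = 7.57e-220). It was found in 19.02% of members and 0.421% of zero barcodes. Zfp352, a zinc finger gene and a common marker of the two-cell stage, had members at 34.3, 99.3, 48.6, 60.7 and 33.6 CPM in NS, ND, 200, 250 and 300 mM, against 0.659, 0, 2.79, 1.89 and 1.29 in zero barcodes (log2 4.96, SE 0.33, edgeR adjusted p = 1.49e-47). Only 2.41 UMIs of Zfp352 were expected in members from zero barcodes. It passed the filter on low counts through members, so its fold and p are a description. The ND value of Zfp352 rests on 3 UMIs, since the 35 ND members held 30364 UMIs in all and 1 UMI there is 33.1 CPM.

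Sp110, a nuclear body gene that is induced by interferon in other cells, stood at 96.6, 165, 57.4, 73.7 and 53.8 CPM in members of NS, ND, 200, 250 and 300 mM and at 0.128 to 4.70 CPM in zero barcodes, 34.5-fold higher (28.9 to 40.9). Of 6 tested interferon and innate immunity genes it alone was called, beside 1.96% higher and 0.313% lower over all tested genes. With so few genes tested, the lack of further calls is near that background. Other genes of the program with fewer UMIs, 48 to 58 in members, included Lmx1a, a LIM homeobox gene (27.8-fold), Tmem92 (20.9-fold) and Arg2, the mitochondrial arginase (14.0-fold). The 3 tested Zscan4 pseudogene models Zscan4-ps1, Zscan4-ps2 and Zscan4-ps3 had log2 fold changes of 4.06, 4.303 and 4.74 on 8, 29 and 11 UMIs, and as close copies of rule genes they may share reads with them. Ddit4l, a relative of the mTOR inhibitor Ddit4, rose 4.74-fold from a higher base, with 122 CPM in NS members against 31.6 in zero barcodes. Pramel7 and Trim43a had few UMIs in NS (2 and 3 in members) and more in the sorbitol libraries (22 of 24 and 18 of 21). Snai1, a transcription factor of mesenchymal transition, was called higher on 15 UMIs only (log2 1.75, edgeR adjusted p = 0.0214), with 0.0736 in DESeq2 and 0.426, 0.0936 and 0.0840 without NS, 200 and 300 mM.

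The other 5 tested genes of the list were not called. Mylpf, a muscle myosin light chain gene, had 308 UMIs in members and a log2 fold change of -0.11 (SE 0.11). Pramel6 was at 1.27 (adjusted p = 0.0571 in edgeR), with members above zero barcodes in 3 of 5 libraries, while its neighbour Pramel7 was called higher at 2.24 on 24 UMIs. Pramef8, Zfp750 and Trim43b were at 0.05, -0.56 and 1.30 with 29, 8 and 8 UMIs. Duxf3, the Dux gene itself, had 2 UMIs in members and was not tested. Zscan4e, Tdpoz3, Tdpoz4, Gm13078 and Gm12794 had 6 to 10 UMIs in members and 2 to 5 in all zero barcodes together, and did not pass the filter on low counts.

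Ranked by fold among genes with at least 10 UMIs in members, the first were gene models rather than named genes. Gm48764, a long intergenic non-coding RNA on chromosome 12 (9503584 to 9509637) far from the rule genes of that chromosome, had a log2 fold change of 7.54 (SE 0.48, edgeR adjusted p = 1.28e-51). It had 52 UMIs in members, of which 32 were in NS and 0 in ND, and 7 UMIs over all zero barcodes, so it passed the filter on low counts only through members; its fold and p, like those of the next 3, describe a gene that had to differ. Gm4340 followed at 7.0, then Gm35974 at 6.89, Gm47381 at 6.48 and B020004J07Rik at 6.47. Gm10696, D13Ertd608e, Olfr787, Gm2022, BC147527, Gm4858 and Gm5788 completed the 12 highest, at 5.88 to 6.15. All 12 had only 0.146 to 1.93 UMIs expected in members from zero barcodes, so the folds of the whole ranking are a description. BC147527 was the most abundant of these, with 129 UMIs, and its members lay at 64.0 to 132 CPM against 0.385 to 1.78 in zero barcodes.

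Many genes called higher sit beside the rule genes. Within 500 kb of a rule gene 43 genes were tested, and 18 (41.9%) were higher, against 239 of the other 13061 (1.83%). All but Tmem267 of these 18 had 5 to 174 UMIs over all zero barcodes, and genes that pass the filter through members have to differ, so the share is a description. These 18 were the 3 Zscan4 pseudogene models on chromosome 7, 7 genes on chromosome 12 led by Gm5662 (230 UMIs, log2 5.25), and 8 on chromosome 13 led by Gm20767 (261 UMIs, log2 5.62) and BC147527. Genes of other function in the same windows mostly did not follow. On chromosome 12, Snw1, a splicing factor gene, had a log2 fold change of 0.35, Slirp -0.20 and Ahsa1 -0.22, and on chromosome 13 Hmgcs1, an enzyme of cholesterol synthesis, had -0.08, none of them called. Tmem267 on chromosome 13 was the exception, at 0.88 and called higher. The genes within the windows are partly copies of the rule genes, so reads may be shared, and 239 genes called higher lie outside the windows.

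**Figure D4:**
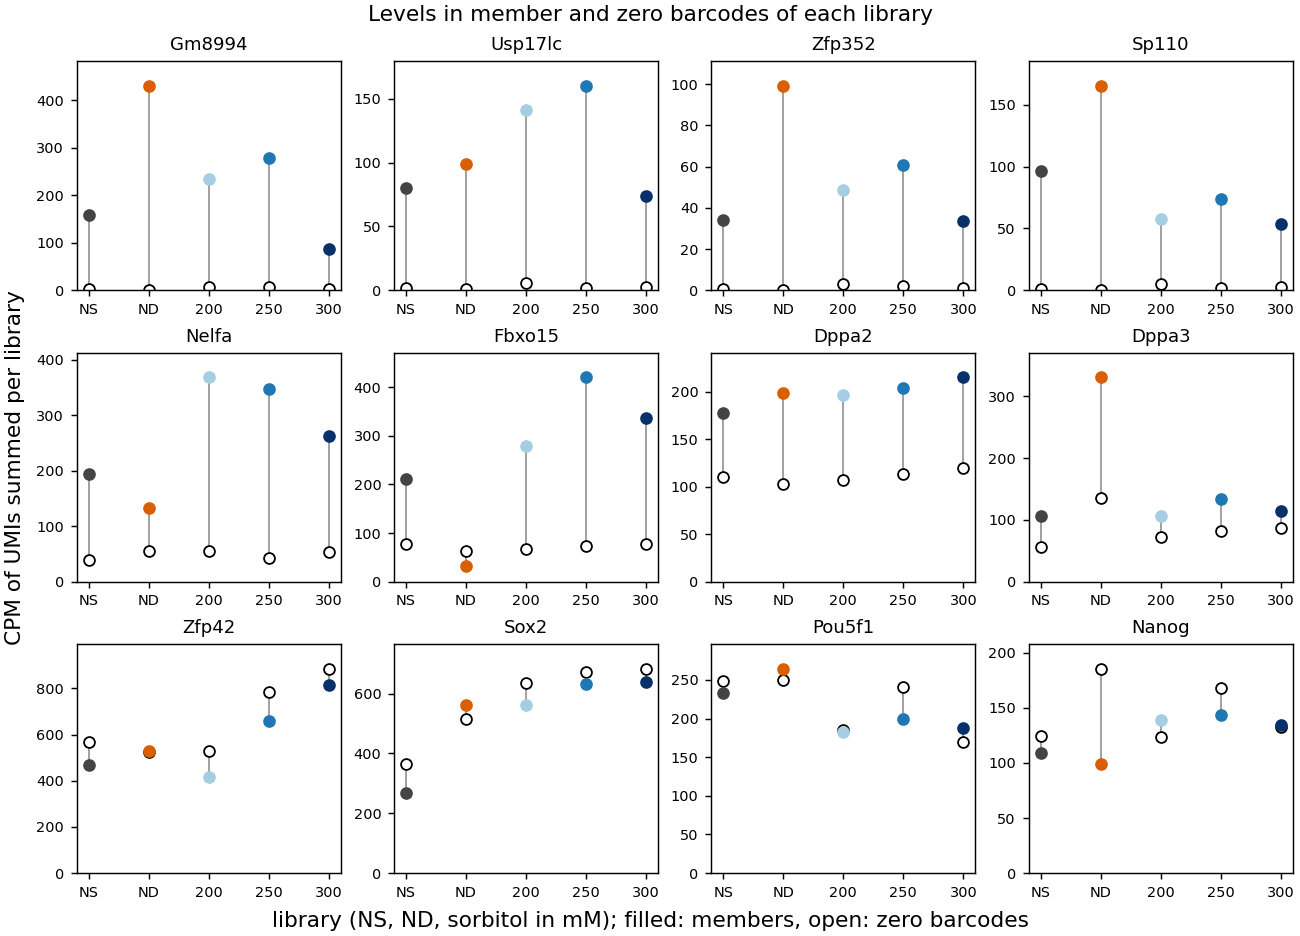
Level in CPM (vertical axes) of 12 genes in member (filled) and zero (open) barcodes of each library (horizontal axes; sorbitol in mM). The genes of the first row lie above 30 CPM in every member sum and below 8 CPM in every zero sum, while Pou5f1 and Nanog differ in either direction.

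Genes known to promote the state moved little or in part. Nelfa, a subunit of the negative elongation factor that is also a maternal factor of the program, rose most: 194 CPM in NS members against 39.6 in zero barcodes, 132 against 55.0 in ND, 369 against 55.5 at 200 mM, 347 against 42.3 at 250 mM and 262 against 53.9 at 300 mM. Its groups did not overlap, and the fold was 5.85 (5.32 to 6.42; log2 2.47, SE 0.11, edgeR adjusted p = 9.25e-112). It had a UMI in 25.7% of members and 5.25% of zero barcodes. In ND the shares were 11.4% of members (4 of 35), 12.6% of barcodes with exactly 1 rule UMI and 4.57% of zero barcodes, so the ND member value rests on few UMIs. Dppa2, which acts upstream of Dux, was at 178, 199, 196, 204 and 215 CPM in members of NS, ND, 200, 250 and 300 mM and at 110, 103, 107, 114 and 119 CPM in zero barcodes, a fold of 1.72 (1.54 to 1.92; log2 0.73, SE 0.11, edgeR adjusted p = 8.18e-09). Its levels were close to each other over the 5 libraries in both groups. Its partner Dppa4 was at -0.05 on the log2 scale (edgeR adjusted p = 0.938).

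Dppa3 (Stella), a maternal factor that protects against DNA methylation, was higher in members in 5 of 5 libraries, from 114 against 86.9 CPM at 300 mM to 331 against 135 CPM in ND (log2 0.66, SE 0.13, edgeR adjusted p = 6.10e-05). Without NS its adjusted p was 0.217. The list of activators had 3 of 10 tested genes higher and 0 lower, beside 1.96% higher and 0.313% lower over all tested genes. Of the rest, Trp53, which can activate Dux, was at -0.28 (edgeR adjusted p = 0.165), and Tet1, Tet2, Kdm5b, Zfp281 and Pias4 had log2 fold changes between -0.24 and 0.16.

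Known repressors of the state were not called, and with 1.96% of all tested genes higher and 0.313% lower a count of 0 in a list of this size is near the background. In the list of 26, which holds chromatin factors such as Trim28, Setdb1, Kdm1a and the assembly factor subunit Chaf1a, 0 were higher and 0 lower in edgeR, with a median log2 fold change of -0.11 beside -0.08 for all genes. Trim28 was at -0.01, Setdb1 at 0.01, Kdm1a at -0.16 and Chaf1a at -0.08. The maintenance methylation genes Dnmt1 and Uhrf1 were at -0.15 and -0.18.

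Pluripotency genes stayed near the level of the other barcodes. Zfp42, whose promoter drives the reporter of this line, was at 469 CPM in NS members against 566 in zero barcodes, 530 against 524 in ND, 415 against 529 at 200 mM, 659 against 785 at 250 mM and 814 against 886 at 300 mM. It was lower in members in 4 of 5 libraries, 0.834-fold (0.779 to 0.893; log2 -0.33, SE 0.10, edgeR adjusted p = 0.0307). The adjusted p was 0.241 with DESeq2 and 0.432, 0.296, 0.308 and 0.115 without NS, 200, 250 and 300 mM, so the call rests on each of these 4 libraries. A Zfp42 UMI was found in 45.9% of members and 49.2% of zero barcodes.

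Sox2 was at 268 CPM in NS members against 365 in zero barcodes, 563 against 516 in ND, 561 against 636, 633 against 673 and 639 against 683 over the doses (log2 -0.29, SE 0.10, edgeR adjusted p = 0.107). It was called lower without ND (adjusted p = 0.00254 in edgeR), whose members hold 17 Sox2 UMIs, without TMM scaling (0.00651) and in members with at least 2 rule genes (0.0396). Pou5f1 was at -0.15 (SE 0.11, edgeR adjusted p = 0.706) and Nanog at -0.16 (SE 0.12, 0.729), with members above zero barcodes in 2 of 5 libraries for each. Of 20 tested naive genes 2 were higher, Dppa3 and Fbxo15, and 1 lower, Zfp42. Of 14 core genes 1 was higher, Dppa2, and 2 lower, Gdf3 and L1td1. Over all tested genes 1.96% were higher and 0.313% lower.

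Fbxo15, an F-box gene known as a target of Pou5f1 and Sox2, was the large exception among them. Its members stood at 211 CPM in NS, 278 at 200 mM, 421 at 250 mM and 336 at 300 mM, against 68.0 to 77.5 CPM in the zero barcodes of these libraries. In ND it was 33.1 against 63.8 CPM, on 1 member UMI. The fold was 3.60 (3.28 to 3.96; log2 1.83, SE 0.11, edgeR adjusted p = 1.51e-64). Its member and zero values did not overlap outside ND.

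Among the 41 genes called lower, 36 had at least 10 UMIs in members. The other 5 rest on fewer: Rbm44, Adgrf5 and Tex21 had 0 UMIs where 6.54, 6.34 and 5.90 were expected from zero barcodes, which at a floor of 3 UMIs over the members is at most 0.459 to 0.508-fold, and Bmerb1 and Gas7 had 3 and 5 UMIs (log2 -2.22 and -1.83). They were named after their values were seen. Suv39h2, a histone H3 lysine methyltransferase gene, was lowest among the 36: 13 UMIs in members where 32.0 were expected from the zero barcodes (0.407-fold, 0.216 to 0.695; log2 -1.36, edgeR adjusted p = 0.0103). Fam168b and Mgme1 followed at -1.19 and -1.15, then Tmem184b, Chmp4c, Ap1g1, Ino80b, Ranbp17, Gdf3, Drosha, Nexmif and Cuedc2 at -0.94 to -0.63. Gdf3, a growth factor of the TGF-beta family, was lower in 5 of 5 libraries, with 36.8 against 57.3 CPM in NS, 33.1 against 83.8 in ND (1 UMI) and 19.9 against 33.0, 47.7 against 68.5 and 53.8 against 70.05 over the doses. DESeq2 and both fits without a library block called 0 genes lower. Leaving out NS, 200, 250 or 300 mM left 6, 12, 9 and 13 called lower, of which 3, 7, 8 and 9 were among the 41, and leaving out ND gave 50 with 34 of the 41.

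Other genes of the two-cell program were higher in barcodes with more rule UMIs. Relative to zero barcodes of the same libraries, the summed list of other two-cell genes was 1.44-fold at exactly 1 rule UMI (1.37 to 1.52), 2.79-fold at 2, 4.92-fold at 3 to 5 and 11.4-fold at 6 or more (10.7 to 12.1); without Mylpf the same folds were 2.43, 6.86, 13.2 and 30.4. Gm8994 rose from 4.73-fold at 1 to 18.2, 35.3 and 97.9, Usp17lc from 3.52 to 106, and Nelfa from 1.65 to 3.42, 5.84 and 9.87. Fbxo15 was already at 3.59-fold at 2 rule UMIs and reached 4.13 at 6 or more, with intervals that overlapped from 2 UMIs on. The mix of libraries differed between the classes. NS gave 108 of 504 barcodes with exactly 2 rule UMIs and 127 of 252 with 6 or more. NS members held less Fbxo15 than those of the sorbitol libraries, and whether the mix bears on these folds was not tested. Dppa2 was at 1.25, 1.58, 1.75 and 1.90. The barcodes with exactly 1 rule UMI, left out of the comparison, thus lay between zero barcodes and members for each of these 5 genes and the list.

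Among pluripotency genes, Pou5f1 stayed at 0.992, 0.966, 0.938 and 0.927-fold over the same classes, with intervals that held 1. Zfp42 was at 0.942, 0.833, 0.804 and 0.885. Sox2 was at 0.959, 0.930, 0.902 and 0.622 (0.512 to 0.748 in the last class). Of the barcodes with 6 or more rule UMIs, 127 came from NS, the library where Sox2 differed most between members and zero barcodes. Whether this mix bears on the Sox2 folds was not tested. These classes use the rule's own values and the same barcodes as the test, so they are given without one.

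**Figure D5:**
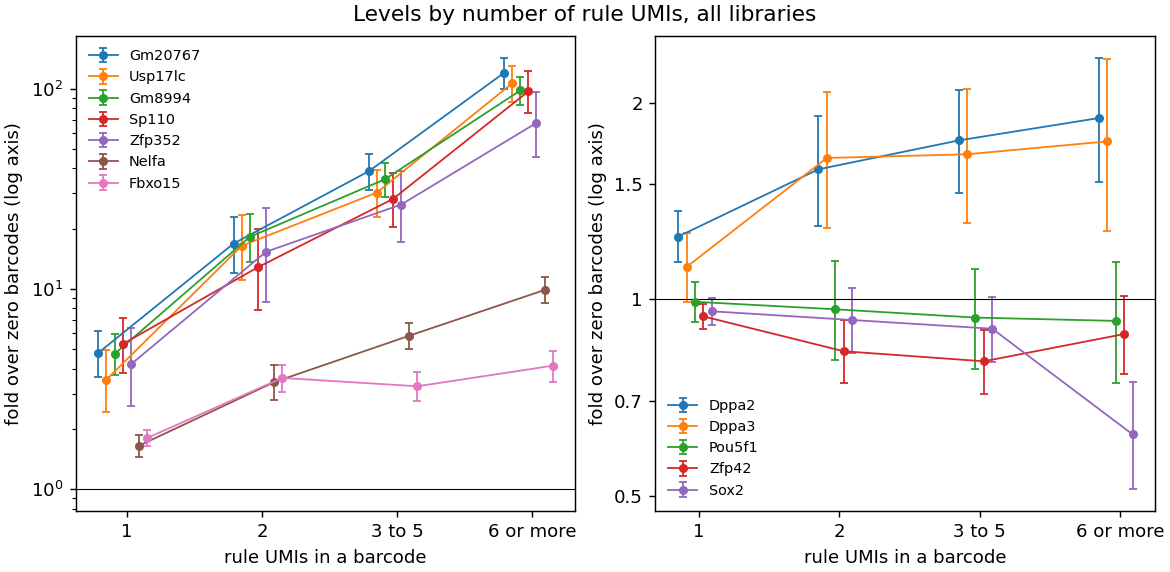
Fold over zero barcodes of the same libraries (vertical log axes) for barcodes with 1, 2, 3 to 5 and 6 or more rule UMIs (horizontal axes), with exact Poisson 95% intervals of the counts. On the left Fbxo15 levels off from 2 rule UMIs while the others climb over all 4 classes. On the right Pou5f1 stays near 1 and Sox2 reaches 0.622 in the last class. The mix of libraries differs between the classes.

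Genes of other cell types were at like levels in members and zero barcodes. None of the markers of primitive endoderm, trophoblast, streak mesoderm, neuroectoderm and fibroblasts was called, and Sox17, Elf5, Mixl1, Sox1, Col1a2 and Col3a1 were at 0 in members. Over all tested genes 1.96% were higher and 0.313% lower, so a count of 0 among so few markers is near the background. Of the 9 listed streak mesoderm genes only 2 were tested, so not called can also mean not tested. The summed UMIs in members were 22 where 24.2 were expected from zero barcodes for 6 primitive endoderm markers, 193 where 196 were expected for 5 trophoblast markers, 31 against 32.3 for 3 streak markers, 20 against 18.8 for 3 neuroectoderm markers and 12 against 9.52 for 4 fibroblast markers. The range over libraries of the summed primitive endoderm markers was 8.67 to 33.6 CPM in members and 12.2 to 21.98 CPM in zero barcodes.

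In stress and housekeeping lists few genes were called, as among all tested genes, of which 1.96% were higher and 0.313% lower. Of 12 tested hyperosmotic genes, which cover osmolyte transport and its regulator Nfat5, 0 were called, and Akr1b3, the aldose reductase that makes sorbitol in cells, was at 0.14 and Slc5a3, a myo-inositol transporter, at -0.13. Of 19 tested genes in the list of the integrated stress response 1 was higher, Ddit4 (1.48-fold, log2 0.50, edgeR adjusted p = 3.98e-06). Ddit4 lay below the zero barcodes in ND and had an adjusted p of 0.0628 without NS in edgeR and 0.0720 with DESeq2. Ppp1r15a, outside that list, was also called higher (1.56-fold, edgeR adjusted p = 0.00539), in 5 of 5 libraries. Of 13 endoplasmic reticulum chaperone genes 1 was higher, Dnajb9 (2.01-fold; log2 0.95, edgeR adjusted p = 0.000149). No gene was called in the lists of formative pluripotency (13 tested), LIF and STAT3 response (13), heat shock (10), p53 targets (15), DNA damage and telomeres (15), glycolysis (15), nuclear and mitochondrial respiratory genes (17 and 13), S phase (28), G2 and M phase (26), translation (22), proteasome (25), DNA methylation (9), germline (15), imprinting (14) and immediate early response (8). Their median log2 fold changes ran from -0.15 in S phase to 0.19 in germline genes, where Dazl, an RNA-binding germ cell gene, was at 0.74 (edgeR adjusted p = 0.0862).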

How the data were processed

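Single-cell RNA libraries of REX-1 RFP cells were deposited as raw UMI count matrices of 32285 genes; Cell Ranger 6.0.1 is named in the file headers as the authors' software, and the submitters' processing notes also name Seurat 4.1.1, R 4.1.2 and mm10, without roles. The labels' protocols describe Trizol lysis and a Lexogen 3′ kit, whereas the files are droplet barcode matrices; which steps apply is not given in the sources used here, nor is the use of strand. No doublet caller was run. Members and gene lists were chosen with earlier results of these data known.

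Rule genes were left out of the gene tests and their totals. UMIs were summed per library and tested with edgeR 4.0.16 (TMM, filterByExpr, quasi-likelihood, library block, Benjamini-Hochberg); DESeq2 1.42.0 was an alternative. The fold is member UMIs over those expected from zero barcodes of the same libraries, with exact Poisson intervals of the member count; shares have Clopper-Pearson intervals. Intervals cover counting error only, and UMIs below 3 are below the floor. Scripts were tested on simulated data. Named genes were the 12 highest and 12 lowest called (at least 10 UMIs, same side in 4 libraries), listed two-cell genes with 3 UMIs, the reporter gene Zfp42 with Nanog, Sox2 and Pou5f1, and the 4 genes that moved most in each list; others were chosen after their values were seen.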

Additional observations from a re-analysis of the deposited data

How the results depend on the processing

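The member shares depended on depth and threshold. Thinned to 500 UMIs they were 1.07%, 2.71%, 1.20% and 1.04% in NS, 200, 250 and 300 mM. Requiring 1 UMI gave 10.8%, 1.49%, 14.3%, 7.61% and 5.92% in NS, ND, 200, 250 and 300 mM. Requiring 3 gave 2.41%, 2.74%, 1.37% and 0.873% in NS, 200, 250 and 300 mM. There the intervals of NS (2.12 to 2.73) and 200 mM (2.43 to 3.08) overlapped, unlike under the rule. With 6 or more rule UMIs, NS had 127 barcodes and 200 mM 64, at the unlike depths of the 2 libraries. Genes called higher numbered 103 without the library block (0 lower), where the filter then tested 11705 genes, 177 without the block on the genes of the blocked fit (0 lower) and 141 for members with a Zscan4 or Tcstv UMI (20 lower), the last 2 being chosen after seeing the data; leaving out each library gave 167 to 249. Genes called lower numbered 0 with DESeq2, 15 against the 10 nearest zero barcodes by depth, and 6 to 50 without each library. Pramef8 turned to -0.0035 with a minimum of 3 UMIs, -0.11 and -0.14 without the block under either filter, -0.12 at 3 rule UMIs, -0.13 with 2 rule genes, -0.21 for members with a Zscan4 or Tcstv UMI and between -0.28 and 0.19 without each library (below 0 without NS or 300 mM); Zfp750 turned to 0.14 in the Zscan4 or Tcstv members. Over all settings, and for a chosen set of genes only, 1167 recomputed fold changes kept their direction and their status, called or not. A further 165 lost the call, 8 gained it and 9 turned. Leaving out the deepest 5% of barcodes, where doublets would lie, gave 237 higher and 33 lower. The causes were not tested. In the libraries other than NS the median depth of 801 to 939 UMIs limits which barcodes reach the rule, a 0 there means not detected, and the 35 ND members give only 30364 UMIs.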

Other observations

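Several expressed genes outside the gene lists were higher in members in 5 of 5 libraries; they are named here after their values were seen. Cwc22, a component of the spliceosome that also loads the exon junction complex, had 206 UMIs in members where 44.4 were expected from zero barcodes (4.64-fold; log2 2.17). Other genes with links to RNA processing had smaller values: Ppig, a cyclophilin of nuclear speckles, was at 1.93-fold on 668 UMIs, Rbbp6, a subunit linked to cleavage and polyadenylation, at 1.92-fold, Aqr, an RNA helicase of the spliceosome, at 1.87-fold and Rbm25, a splicing regulator, at 1.55-fold on 902 UMIs. No enrichment of RNA processing genes was tested.

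Genes of other functions had values of the same kind. Ercc4, an endonuclease subunit of nucleotide excision repair, was at 5.33-fold, Lonp2, the peroxisomal Lon protease, at 5.10-fold, Scamp1, a secretory carrier membrane protein, at 3.81-fold, Glrx2, the mitochondrial glutaredoxin, at 2.99-fold, Atf2, a transcription factor, at 2.66-fold and Prps1, an enzyme of nucleotide synthesis, at 2.24-fold.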
